A study of Mus musculus with 63 samples.

Results

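Peritoneal macrophages of young wild-type male mice that carried the IFN-γ label were compared with those that carried the untreated label. The comparison held 8 of the 63 RNA-seq libraries of the series, 5 labelled IFN-γ (IFN 1 to IFN 5) and 3 labelled untreated (UT 1, UT 2 and UT 5), and the groups were taken from the names of the columns in the count table and from the sample labels. All 8 came from wild-type B6 mice of 2 to 3 months. Cells were collected 72 h after an intraperitoneal injection of 3% thioglycollate, an irritant that draws monocytes into the cavity, and were allowed to adhere. By the labels the IFN-γ group received 100 U of IFN-γ for 18 h and the untreated group received vehicle. The other groups of the series differ by the R1441C knock-in allele of Lrrk2, a kinase gene linked to Parkinson's disease, by sex and by age (18 to 21 months for old mice). The cells were purified by adherence and not sorted, so other cells of the cavity could enter a library. The labels do not say that libraries of a group came from separate mice, so p-values measure the spread between libraries, which may be technical.

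IFN-γ binds a receptor of IFNGR1 and IFNGR2 chains and signals through the kinases JAK1 and JAK2. The pathway acts on GAS sites and induces IRF1 and the class II transactivator CIITA, and with them the guanylate-binding proteins, the immunity-related GTPases, the chemokines CXCL9 and CXCL10, the inducible nitric oxide synthase and MHC class II molecules. In macrophages this programme raises antigen presentation and killing of intracellular microbes. The peritoneal cavity also holds many B cells, including B-1 cells, with fewer T cells, NK cells and mast cells, and their transcripts reach a macrophage library when the cells are carried along.

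Promoters of 4 genes are printed as single examples, which need not be typical of their class. They are an IFN-γ response gene (Gbp2), a transcription factor that the pathway induces (Irf1), a B cell gene (Vpreb3) and the gene with the most stable difference outside the lymphocyte classes (Chm). They are RefSeq promoters of the GRCm38.p6 build, 250 bases before to 50 bases after the start of the gene, read on the strand of the gene. Capitals mark a match to one of 3 motifs searched on both strands, GAS (TTCNNNGAA), the core of the interferon-stimulated response element (ISRE core, GAAA and GAAA with any 2 bases between them) and the octamer of B cell promoters (ATGCAAAT). In Gbp2 (chr3:142620413-142620712, plus strand) the capitals are an ISRE core, in Irf1 (chr11:53769764-53770063, plus strand) and Chm (chrX:113185466-113185765, minus strand) a GAS match, and in Vpreb3 (chr10:75948050-75948349, plus strand) an octamer.
Gbp2: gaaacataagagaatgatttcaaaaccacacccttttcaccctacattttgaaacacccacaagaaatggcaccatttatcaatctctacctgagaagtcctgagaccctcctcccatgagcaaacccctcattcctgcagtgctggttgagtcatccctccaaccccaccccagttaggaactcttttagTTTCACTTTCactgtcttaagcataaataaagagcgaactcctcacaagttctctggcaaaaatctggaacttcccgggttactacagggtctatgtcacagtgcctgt
Irf1: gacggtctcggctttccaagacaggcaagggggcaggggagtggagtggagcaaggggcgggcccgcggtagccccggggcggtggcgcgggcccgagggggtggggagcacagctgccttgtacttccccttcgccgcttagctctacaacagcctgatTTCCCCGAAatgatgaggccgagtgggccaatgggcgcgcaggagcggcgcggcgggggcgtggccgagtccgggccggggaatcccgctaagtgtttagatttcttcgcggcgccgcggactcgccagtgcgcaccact
Vpreb3: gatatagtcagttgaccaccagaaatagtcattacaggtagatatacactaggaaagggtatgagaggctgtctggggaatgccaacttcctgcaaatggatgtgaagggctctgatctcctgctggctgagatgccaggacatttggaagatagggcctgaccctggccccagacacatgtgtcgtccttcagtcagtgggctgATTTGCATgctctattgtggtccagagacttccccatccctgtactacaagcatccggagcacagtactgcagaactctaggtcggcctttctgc
Chm: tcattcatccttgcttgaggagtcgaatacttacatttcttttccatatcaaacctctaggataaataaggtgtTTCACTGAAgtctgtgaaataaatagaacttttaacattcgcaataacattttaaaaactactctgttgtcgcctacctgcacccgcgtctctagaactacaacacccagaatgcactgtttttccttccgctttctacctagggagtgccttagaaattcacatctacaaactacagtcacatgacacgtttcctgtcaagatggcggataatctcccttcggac

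Of 32851 RefSeq promoters of that length, 8.3% held a GAS match, 3.44% an ISRE core and 1.74% an octamer. The table had a promoter for 23 of the 37 IFN-γ response genes examined, of which 10 held a GAS match and 12 an ISRE core. It had one for 13 of 21 B cell genes, of which 0 held a GAS match, 2 an ISRE core and 1 an octamer. That 1 is the printed Vpreb3. It had one for 11 of 14 genes of MHC class II presentation, of which 1 held a GAS match and 1 an ISRE core. A match describes letters and not a bound site. The match in Chm is one that 8.3% of all promoters hold.

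The 5 IFN-γ libraries had 95.6 to 98.6 M counts and the 3 untreated libraries 96.2 to 106.6 M. Of 56748 genes in the table, 22147 passed the filter on low counts, which used all 16 groups and kept 99.9918% of the counts. Levels are given as CPM (counts scaled to the library total after TMM normalization), which are not corrected for gene length and are compared only within a gene. The cells had the transcripts of macrophages and of males. Adgre1, which encodes F4/80, had 884 to 1075 CPM in IFN-γ libraries and 797 to 967 CPM in untreated libraries, and the Y-linked Ddx3y had 59.6 to 67.9 CPM in IFN-γ libraries and 49.4 to 67.8 CPM in untreated libraries. The macrophage receptor gene Csf1r gave no call (log2 difference 0.05 ± 0.15 SE, edgeR adjusted p = 0.97). Ifng itself had 1 count in IFN 3 and 0 in the other 7 libraries.

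The IFN-γ response gene Gbp2 was low in both groups against old mice. It averaged 339 ± 182 CPM in the young male IFN-γ libraries (SD, n = 5) and 141 ± 39.5 CPM in the young male untreated libraries (SD, n = 3), against 4599 to 6621 CPM in the 8 libraries of old wild-type males of both labels. The IFN-γ response list described below summed to 1556 to 3184 CPM in young male IFN-γ libraries and 1228 to 1454 CPM in young male untreated libraries, against 20519.5 to 22083 CPM in old male IFN-γ libraries and 21808 to 27418 CPM in old male untreated libraries. Over these 16 libraries the list sums were set apart by the age label far more than by the treatment label, and in old males the IFN-γ libraries were not the higher group. Whether a label of treatment or age is wrong was not tested, and every comparison here is between libraries as labelled. Lrrk2, which was not altered in these mice, had 33.5 to 59.4 CPM in the IFN-γ libraries and 29.1 to 40.7 CPM in the untreated libraries (log2 difference 0.45 ± 0.27 SE, adjusted p = 0.71).

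The IFN-γ libraries fell into 2 sets. Over 9814 well-covered genes the median absolute log2 difference between libraries was 0.0598 to 0.0818 among IFN 1, IFN 2 and IFN 3, was 0.0499 between IFN 4 and IFN 5, and was 0.0847 to 0.102 between the sets. UT 5 was nearer to IFN 4 and IFN 5 (0.0803 and 0.0802) than to UT 1 and UT 2 (0.154 and 0.124). IFN 1 to 3 were high in lymphocyte and mast cell transcripts, and IFN 4 and 5 were high in red cell and sperm cell transcripts. The red cell list, which holds the globin genes, summed to 3.55, 7.92, 8.84, 47.3 and 41.5 CPM in IFN 1 to 5, against 4.64, 5.59 and 4.00 CPM in UT 1, UT 2 and UT 5. Xist, the RNA of the inactive X chromosome of females, had 0.405, 0.00954, 0.0784, 13.4 and 14.7 CPM in IFN 1 to 5, against 0.0316, 0.0460 and 1.36 CPM in UT 1, UT 2 and UT 5. IFN 4 and 5 were thus the highest of the 8 libraries, below the 168.8 to 362 CPM of the 6 young wild-type female libraries.

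The same split appeared in the variable segments of immunoglobulin genes, whose mixture marks the B cells of an individual or pool. Counts on V segments numbered 5082, 10236, 10244, 5179 and 4467 in IFN 1 to 5, against 1265, 1462 and 2299 in UT 1, UT 2 and UT 5. With the 2 leading segments set aside, the use of the others correlated at r = 0.65 to 0.79 among IFN 1 to 3, at 0.82 between IFN 4 and 5 and at 0.22 to 0.36 across the sets. UT 5 correlated at 0.42 with IFN 4 and 0.35 with IFN 5, and at -0.01 to 0.07 with IFN 1 to 3 (Pearson over 174 segments, which are not independent). IFN 4 and 5 correlated at 0.80 to 0.83 with IFN 4 and 5 of the old wild-type males, and IFN 1 to 3 at 0.63 to 0.76 with IFN 1 to 3 of the old wild-type males. The square-root scale and the removal of the leading segments were chosen after the values were seen. UT 1 and UT 2 had under 1000 V counts left and are not shown. The leading segments were Igkv14-126 and Ighv11-2, a pair known from B-1 cells that bind phosphatidylcholine. Igkv14-126 took 20.1, 20.4, 18.8, 33.3 and 30.6% of V counts in IFN 1 to 5, against 32.5, 31.3 and 29.2% in UT 1, UT 2 and UT 5, and so was lower in IFN 1 to 3 than in every other library.

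**Figure D1:**
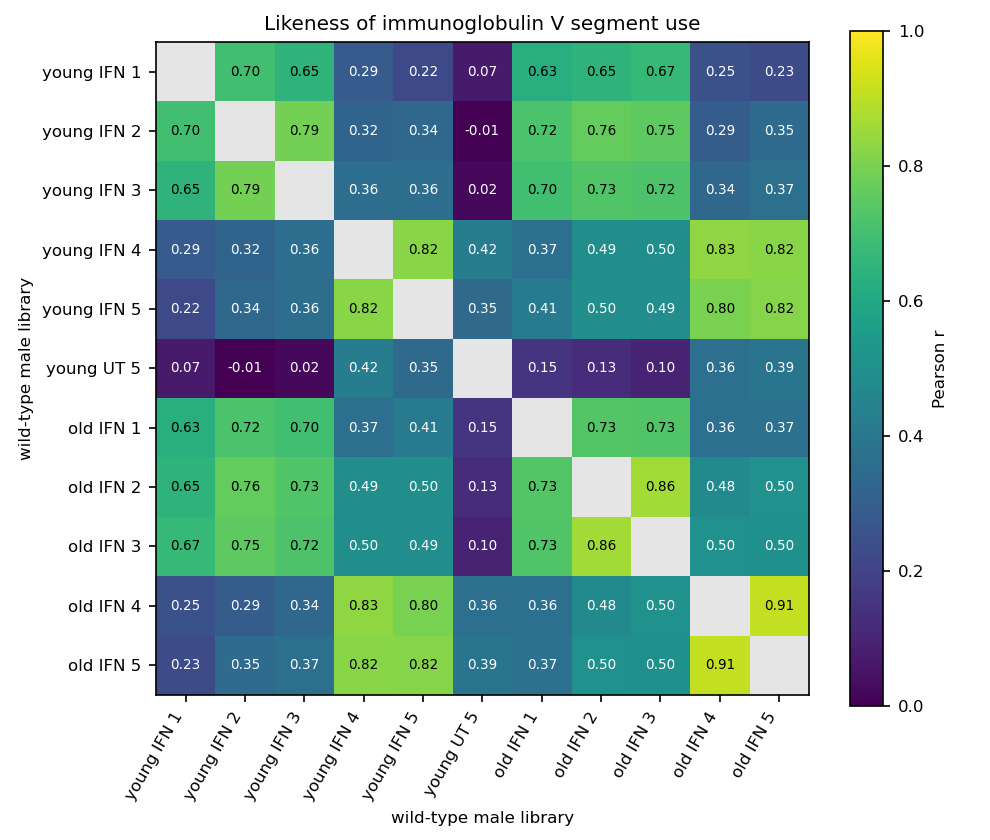
Pearson correlation of V segment use between young and old wild-type male libraries with at least 1000 remaining V counts (colour scale, r; both axes, libraries). Young IFN 4 and 5 pair with old IFN 4 and 5 (0.80 to 0.83) and young IFN 1 to 3 with old IFN 1 to 3 (0.63 to 0.76).

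With the IFN-γ label 55 genes were higher and 6 lower at an adjusted p under 0.05 (edgeR quasi-likelihood F test with Benjamini-Hochberg adjustment over all 22147 genes), which is 0.248% and 0.0271% of the genes tested. Before adjustment, 1247 genes were higher (5.63%) and 720 lower (3.25%). The genes were placed in 4 classes: immunoglobulin and T cell receptor genes, genes on a list of markers of another cell type, genes that tracked another cell type, and the remainder. A gene tracked another cell type when its level correlated at 0.5 or more with the B cell, T cell, NK cell, mast cell or mesothelial list over the 47 libraries that were not from wild-type males, each centred on its group. The measure was not particular to other cells. It also took in 16 of 16 resident macrophage genes, 6 of 12 macrophage genes, 28 of 28 proliferation genes and 45 of 58 lysosomal genes. Tracking alone therefore does not place a transcript in another cell type. Of the 55 higher genes, 6 were immunoglobulin or T cell receptor genes, 20 were on a list of another cell type, 19 tracked another cell type and 10 remained, out of 250, 113, 6087 and 15697 tested in those classes. All 6 lower genes were of the remainder. In 41 of the 55 higher genes IFN 1, 2 and 3 each exceeded IFN 4 and 5, and among the 20 list genes this held for 19.

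The count depended on which libraries entered. Without IFN 4 it was 104 genes, without IFN 2 or IFN 3 it was 23 or 18, without UT 1 or UT 2 it was 1 in each case (Chm), and without UT 5 it was 37. IFN 1 to 3 against the 3 untreated libraries gave 189 genes, IFN 4 and 5 against them gave 24, and 1 gene was in both sets, Chm. With the libraries most alike within each group joined (IFN 1 to 3, IFN 4 and 5, UT 1 and 2), so that the comparison was 2 against 2, no gene passed and 614 had an unadjusted p under 0.05.

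**Figure D2:**
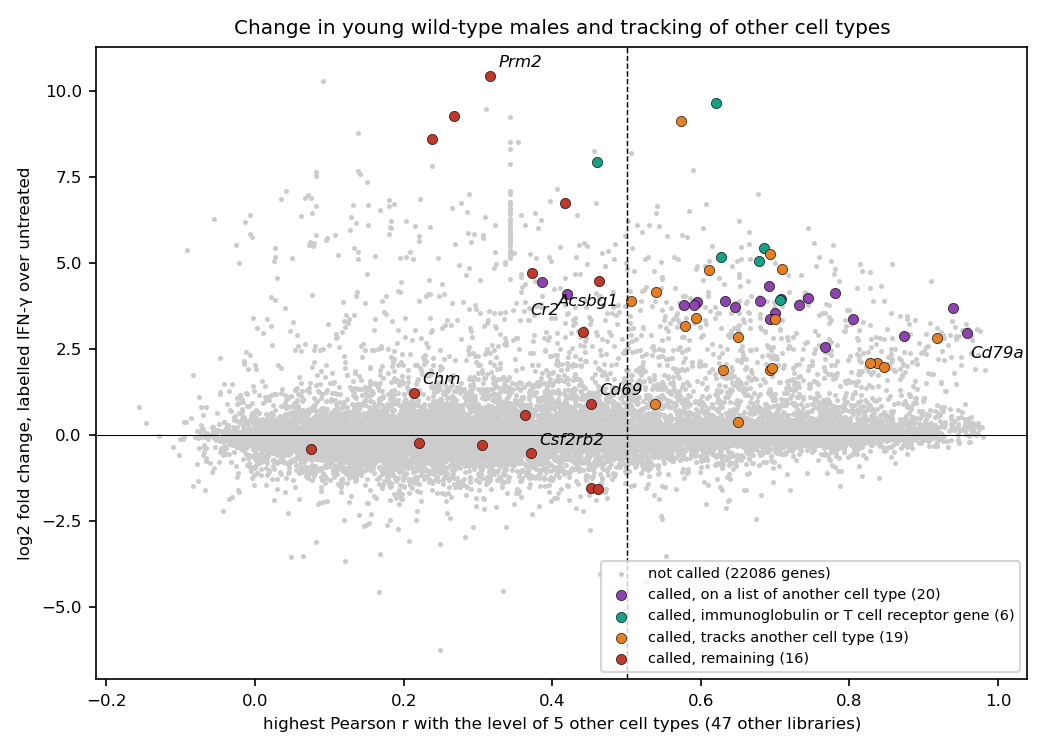
Log2 difference between IFN-γ and untreated libraries of young wild-type males (vertical axis) against the highest correlation of each gene with B, T, NK, mast or mesothelial list levels over 47 other libraries (horizontal axis, r; dashed line at 0.5); points are genes, called genes in colour. Most called higher genes lie right of the line or on a marker list, and Chm and the 6 lower genes lie left of it.

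B cell transcripts were higher in all 5 IFN-γ libraries. Of 21 B cell genes 7 passed the test, all higher, 20 had an unadjusted p under 0.05 and 20 had groups that did not overlap, against 4.33% of all genes for such a separation upward. Their median log2 difference was 3.01, against 0.00 over all genes. Cd79a, a signalling chain of the B cell receptor, had 15.6, 33.9, 30.8, 6.36 and 5.52 CPM in IFN 1 to 5, against 2.54, 2.61 and 1.99 CPM in UT 1, UT 2 and UT 5. IFN 4 and 5 stood just above the untreated libraries and IFN 2 and 3 far above them (log2 difference 2.95 ± 0.70 SE, edgeR adjusted p = 0.043). Without UT 1 or UT 2 0 of the 21 genes passed, without UT 5 or IFN 3 2 passed, without IFN 2 3 passed and without IFN 4 11 passed. In these bulk libraries more cells of a type and more RNA per cell cannot be told apart.

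The B cell genes that rose included receptors and transcription factors of mature B cells. Ebf1, a factor that sets B cell identity, had 1.72, 3.85, 3.52, 1.27 and 1.28 CPM in IFN 1 to 5, against 0.148, 0.184 and 0.200 CPM in UT 1, UT 2 and UT 5. Every IFN-γ library exceeded every untreated one (log2 difference 3.70 ± 0.71 SE, edgeR adjusted p = 0.0095). Cr2, the complement receptor CD21, rose by 4.10 ± 0.88 (adjusted p = 0.02) and Fcer2a, the low-affinity IgE receptor CD23, by 3.86 ± 0.83 (adjusted p = 0.02) on the log2 scale. Ighd, the heavy chain of IgD of naive B cells, averaged 8.49 ± 5.95 CPM in IFN-γ libraries and 0.614 ± 0.0990 CPM in untreated libraries (SD, n = 5 and 3; adjusted p = 0.018). Vpreb3, whose promoter is printed above, had 0.251, 0.592, 0.549, 0.107 and 0.0820 CPM in IFN 1 to 5, against 0.0105, 0 and 0.0300 CPM in UT 1, UT 2 and UT 5 (adjusted p = 0.0095). Ly6d was higher by 2.87 ± 0.60 (adjusted p = 0.018).

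Some B lineage genes did not pass. Ighm, the IgM heavy chain, had 55.8 to 145 CPM in IFN-γ libraries and 21.4 to 26.2 CPM in untreated libraries, with no overlap (adjusted p = 0.29). Cd22, an inhibitory lectin of B cells, was lower, at 118 to 132 CPM in IFN-γ libraries and 137 to 149 CPM in untreated libraries (adjusted p = 0.65). Of 5 B-1 cell genes 0 passed (median log2 difference 1.60), and of 6 plasma cell genes 0 passed (median 0.51). By gene, 4 of 5 B-1 genes and 4 of 6 plasma cell genes had a positive difference. The mean log2 CPM of the B-1 list was 0.05 to 1.49 in IFN-γ libraries and -0.42 to -0.16 in untreated libraries. The sums of the 2 lists, in which the most abundant genes weigh most, leaned the other way. The B-1 list summed to 88.9 to 107.5 CPM in IFN-γ libraries and 102.5 to 124.5 CPM in untreated libraries. The plasma cell list summed to 138.4 to 183.0 CPM in IFN-γ libraries and 183.0 to 206.6 CPM in untreated libraries.

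T cell transcripts had a list median of 3.55, and 10 of 18 genes passed, all higher. Without UT 1 or UT 2 0 passed, without UT 5 5 passed, and without IFN 2 or IFN 3 6 or 4 passed. Tcf7, a transcription factor of naive T cells, had 2.99, 8.86, 9.05, 1.53 and 1.18 CPM in IFN 1 to 5, against 0.316, 0.331 and 0.731 CPM in UT 1, UT 2 and UT 5. The groups did not overlap, and IFN 2 and 3 were highest (log2 difference 3.36 ± 0.64 SE, edgeR adjusted p = 0.0095). Cd3d, a chain of the T cell receptor complex, had 0.743, 1.69, 1.34, 0.166 and 0.0922 CPM in IFN 1 to 5, against 0.0422, 0 and 0.120 CPM in UT 1, UT 2 and UT 5. Here IFN 5 lay below UT 5, so the groups overlapped, although the gene passed (log2 difference 3.89 ± 0.79 SE, adjusted p = 0.015). Trbc2, the constant region of the receptor β chain, rose by 4.14 ± 0.77 (adjusted p = 0.0089) and Cd8a by 3.79 ± 0.80 (adjusted p = 0.018). Trbc1 and Trbc2 are near-identical in sequence, and reads could be split between them. Lef1, a partner of Tcf7, and Thy1, a surface marker of T cells, were not on the list but tracked other cell types and also rose, by 3.91 ± 0.86 (adjusted p = 0.026) and 2.85 ± 0.53 (adjusted p = 0.0089).

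Of 11 NK cell genes 2 passed, both higher, and 10 had a positive difference, with a list median of 2.02 (1.75 with genes at 0 in the untreated libraries set to their bound). Prf1, which encodes perforin, had 0.193, 0.382, 0.362, 0.0585 and 0.0615 CPM in IFN 1 to 5, against 0.0211, 0.0184 and 0 CPM in UT 1, UT 2 and UT 5 (edgeR adjusted p = 0.026). Eomes, a transcription factor of NK cells, had 0.0922 to 0.200 CPM in IFN-γ libraries and 0 to 0.0105 CPM in untreated libraries (adjusted p = 0.022). Both are genes of few counts, and their groups did not overlap. Of the list 0 genes passed without IFN 2, IFN 3, UT 1, UT 2 or UT 5.

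Of 11 mast cell and basophil genes only Kit passed, while all 11 had an unadjusted p under 0.05 and the list median was 2.22. Kit, the receptor for stem cell factor, had 3.33, 3.66, 3.85, 1.24 and 1.08 CPM in IFN 1 to 5, against 0.348, 0.313 and 0.691 CPM in UT 1, UT 2 and UT 5 (log2 difference 2.54 ± 0.53 SE, adjusted p = 0.016). Every IFN-γ library exceeded every untreated one, and IFN 1 to 3 were about alike. Without IFN 3, UT 1 or UT 2 Kit did not pass. The tryptase gene Tpsb2 had 11.1, 13.4, 11.7, 1.94 and 1.85 CPM in IFN 1 to 5, against 1.20, 1.02 and 2.52 CPM in UT 1, UT 2 and UT 5, with UT 5 above IFN 4 and 5 (adjusted p = 0.37).

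The lists were also summed in each library. The B cell list summed to 253 to 507 CPM in IFN-γ libraries and 183 to 197 CPM in untreated libraries. Most of the untreated sum was Cd22, which was lower with the IFN-γ label, unlike the other genes of the list. The mean log2 CPM of the list, in which each gene weighs alike, was 1.67 to 3.57 in IFN-γ libraries and 0.15 to 0.28 in untreated libraries. The T cell list summed to 15.3, 39.3, 40.3, 4.87 and 4.91 CPM in IFN 1 to 5, against 2.15, 2.08 and 3.33 CPM in UT 1, UT 2 and UT 5. The mast cell list summed to 34.3, 40.3, 38.2, 8.91 and 7.84 CPM in IFN 1 to 5, against 4.91, 4.57 and 8.24 CPM in UT 1, UT 2 and UT 5. For T cells the sums did not overlap between groups, and for mast cells UT 5 lay between IFN 4 and IFN 5. Neutrophil genes (9 tested, median -0.20) and mesothelial and fibroblast genes (14 tested, median -0.01) had medians near 0, and 0 of either list passed. The mesothelial and fibroblast list was uneven over the untreated libraries, with sums of 156, 164 and 499 CPM against 207 to 358 CPM in IFN-γ libraries. UT 5 was the highest untreated library in 13 of its 14 genes.

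**Figure D3:**
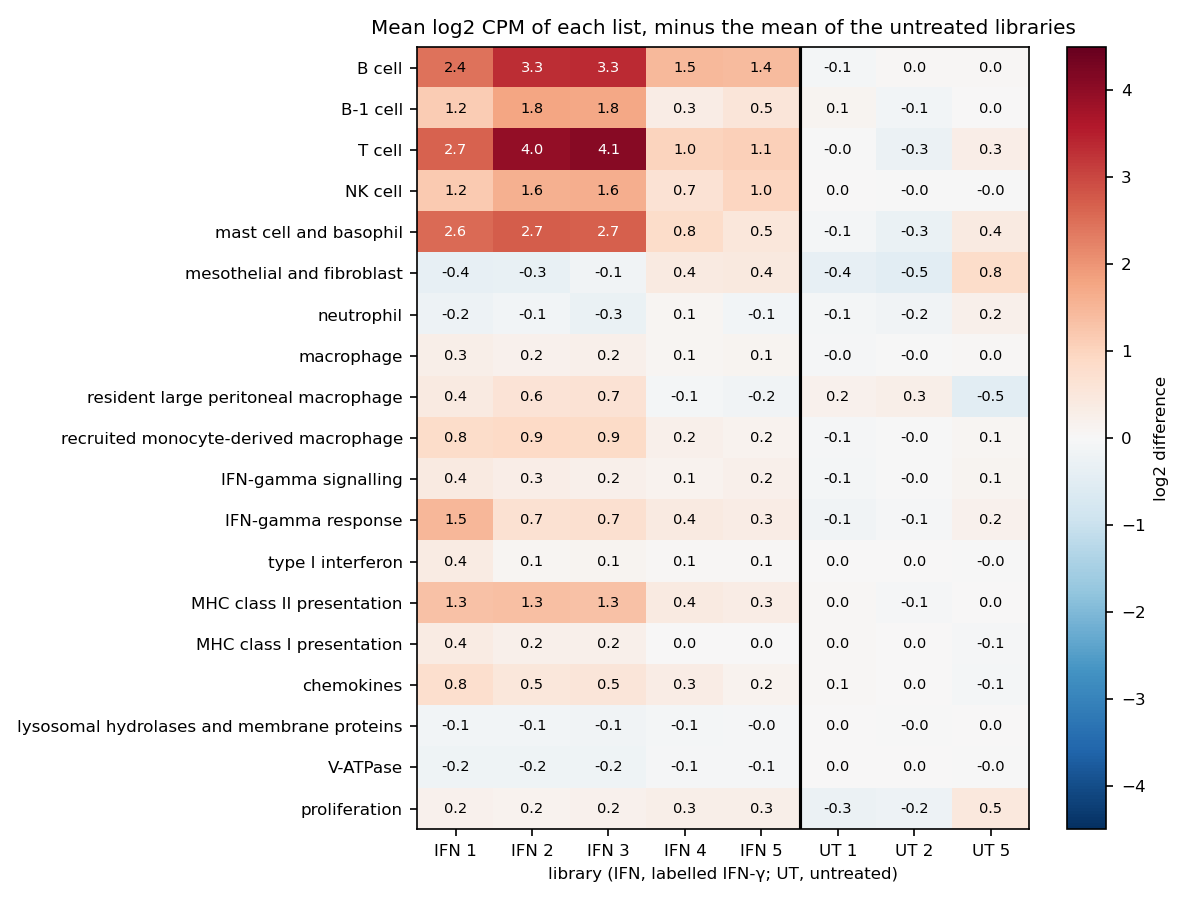
Mean log2 CPM of 19 gene lists in the 8 libraries, minus the mean of the 3 untreated libraries (colour scale, log2; IFN-γ libraries left of untreated libraries). B cell, T cell, NK cell and mast cell lists are high in IFN 1 to 3 and lower in IFN 4 and 5, mesothelial genes are highest in UT 5, and the macrophage list differs by at most 0.3.

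Among genes of the remainder, Chm gave the clearest difference. It encodes Rab escort protein 1, which presents newly made Rab proteins for prenylation so that they can attach to vesicle membranes. Chm had 35, 35.4, 38.0, 35.9 and 37.3 CPM in IFN 1 to 5, against 13.5, 14.7 and 18.2 CPM in UT 1, UT 2 and UT 5. The 5 IFN-γ libraries lay within 3 CPM of each other and all lay far above the untreated libraries, with no split between IFN 1 to 3 and IFN 4 and 5. The log2 difference was 1.23 ± 0.18 (SE; edgeR adjusted p = 0.00028), and it was 1.22 with IFN 1 to 3 alone and 1.22 with IFN 4 and 5 alone. Its level did not rise with the other cell types (highest r 0.21, with the mesothelial list). Chm passed in 17 of 18 alternatives, and in the one with the like libraries of both groups joined it was 1.16 with an adjusted p of 0.12.

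In 3 other strata the ranges of Chm lay closer together. It had 25.6 to 29.8 CPM in IFN-γ libraries and 9.63 to 25.3 CPM in untreated libraries of old wild-type males, 30.4 to 33.2 CPM in IFN-γ and 16.9 to 29.5 CPM in untreated libraries of young knock-in males, and 30.0 to 34.5 CPM in IFN-γ and 23.7 to 37.9 CPM in untreated libraries of young wild-type females. The untreated libraries of young wild-type males had the lowest mean of the 16 groups, and IFN-γ libraries averaged 36.3 ± 1.27 CPM (SD, n = 5) against 15.5 ± 2.44 CPM in these (SD, n = 3).

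Cd69 and Pla2g4a were also higher and tracked no other cell type. Cd69, an early activation antigen of leukocytes, had 3.66, 2.41, 1.84, 2.22 and 1.88 CPM in IFN 1 to 5, against 1.03, 1.20 and 1.60 CPM in UT 1, UT 2 and UT 5. The groups did not overlap, with IFN 1 highest (log2 difference 0.91 ± 0.21 SE, edgeR adjusted p = 0.033). Its correlation with the NK list was 0.45, just under the threshold used. Pla2g4a, the cytosolic phospholipase that releases arachidonic acid, had 29.1, 23.5, 26.4, 21.8 and 23.1 CPM in IFN 1 to 5, against 15.0, 15.1 and 20.0 CPM in UT 1, UT 2 and UT 5 (log2 difference 0.57 ± 0.13 SE, adjusted p = 0.03). UT 5 came close to IFN 4 without reaching it.

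The 4 named genes that fell were expressed at moderate levels and changed by small amounts. Csf2rb2, the β chain of the mouse IL-3 receptor, had 243, 235, 239, 286 and 298 CPM in IFN 1 to 5, against 383, 403 and 331 CPM in UT 1, UT 2 and UT 5. All IFN-γ libraries were below all untreated libraries, and IFN 4, IFN 5 and UT 5 lay nearest each other (log2 difference -0.52 ± 0.12 SE, edgeR adjusted p = 0.033). Csf2rb2 is a near-identical copy of Csf2rb, the common β chain, so reads could be split between the pair. Csf2rb had a log2 difference of -0.25 (adjusted p = 0.38).

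Ptprs, a receptor tyrosine phosphatase, had 70.5, 76.1, 70.3, 81.6 and 83.1 CPM in IFN 1 to 5, against 103, 97.2 and 101 CPM in UT 1, UT 2 and UT 5, and fell by 0.39 ± 0.09 on the log2 scale (adjusted p = 0.04). Aifm2, an oxidoreductase that protects membrane lipids from peroxidation, had 38.2 to 44.0 CPM in IFN-γ libraries and 47.1 to 52.4 CPM in untreated libraries, and fell by 0.29 ± 0.07 (adjusted p = 0.036). Ranbp10, a Ran-binding protein, had 59.0 to 62.9 CPM in IFN-γ libraries and 67.2 to 77.1 CPM in untreated libraries, and fell by 0.24 ± 0.06 (adjusted p = 0.033). In all 3 the groups did not overlap. None of the 4 named lower genes passed without UT 1 or without UT 2. With each of the 8 libraries left out in turn, Csf2rb2 and Aifm2 each failed 5 times and Ptprs and Ranbp10 6 times.

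A further set of called genes came from IFN 4 and 5. Prm2 and Prm1, which encode the protamines that pack sperm DNA, and Tnp2, which encodes a transition protein of spermatids, had counts in these libraries. Prm2 had 0.0482, 0.134, 0.176, 4.52 and 3.99 CPM in IFN 1 to 5, against 0 CPM in each untreated library, at least 179-fold higher when set against a floor of 3 counts over the untreated group (edgeR adjusted p = 0.047). Tnp2 had 0.0482, 0.0477, 0.00979, 2.09 and 1.75 CPM in IFN 1 to 5, against 0 CPM in each untreated library, at least 79.8-fold higher (adjusted p = 0.012). IFN 4 and 5 held nearly all of both transcripts, and the folds use the mean of the 5 IFN-γ libraries. With single libraries left out, Prm2 did not pass in 7 runs and Tnp2 did not in 3. In old wild-type males the same 2 library numbers of the IFN-γ label were high in Prm2 (1.75 and 2.37 CPM), and the other 6 libraries had 0 to 0.141 CPM.

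Acsbg1, an acyl-CoA synthetase, followed the same libraries, at 0.511, 0.506, 0.607, 4.85 and 5.07 CPM in IFN 1 to 5, against 0.0844, 0.110 and 0.110 CPM in UT 1, UT 2 and UT 5. Here IFN 1 to 3 also lay above the untreated libraries (log2 difference 4.48 ± 0.82 SE, adjusted p = 0.0089). Ptgds, the lipocalin-type prostaglandin D synthase, had 10.7 CPM in IFN 4 and in IFN 5, and at most 0.0386 CPM in the other IFN-γ libraries and 0.0211 CPM in the untreated ones. Tnp2, Prm1 and Ptgds were named after their values were seen.

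Of called genes that tracked another cell type, some are not markers of lymphocytes, and these were also named after their values were seen. Scd1, the stearoyl-CoA desaturase, had 8.46, 14.7, 16.3, 9.69 and 10.5 CPM in IFN 1 to 5, against 2.32, 2.46 and 4.81 CPM in UT 1, UT 2 and UT 5 (log2 difference 1.90 ± 0.44 SE, edgeR adjusted p = 0.037). Its correlation with the mast cell list was 0.69 and with the B cell list 0.66. Bmpr1a, a receptor for bone morphogenetic proteins, had 8.96, 8.29, 8.37, 8.03 and 8.22 CPM in IFN 1 to 5, against 4.13, 4.00 and 5.37 CPM in UT 1, UT 2 and UT 5 (log2 difference 0.89 ± 0.19 SE, adjusted p = 0.018). Like Chm, Bmpr1a was even over the 5 IFN-γ libraries, while its correlation with the mast cell list was 0.54. Pglyrp2, an amidase that cuts bacterial peptidoglycan, belonged to the remainder and had 0.357, 0.630, 0.852, 0.224 and 0.389 CPM in IFN 1 to 5, against 0.0738, 0.0276 and 0.0801 CPM in UT 1, UT 2 and UT 5 (log2 difference 3.01 ± 0.51 SE, adjusted p = 0.0033).

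**Figure D4:**
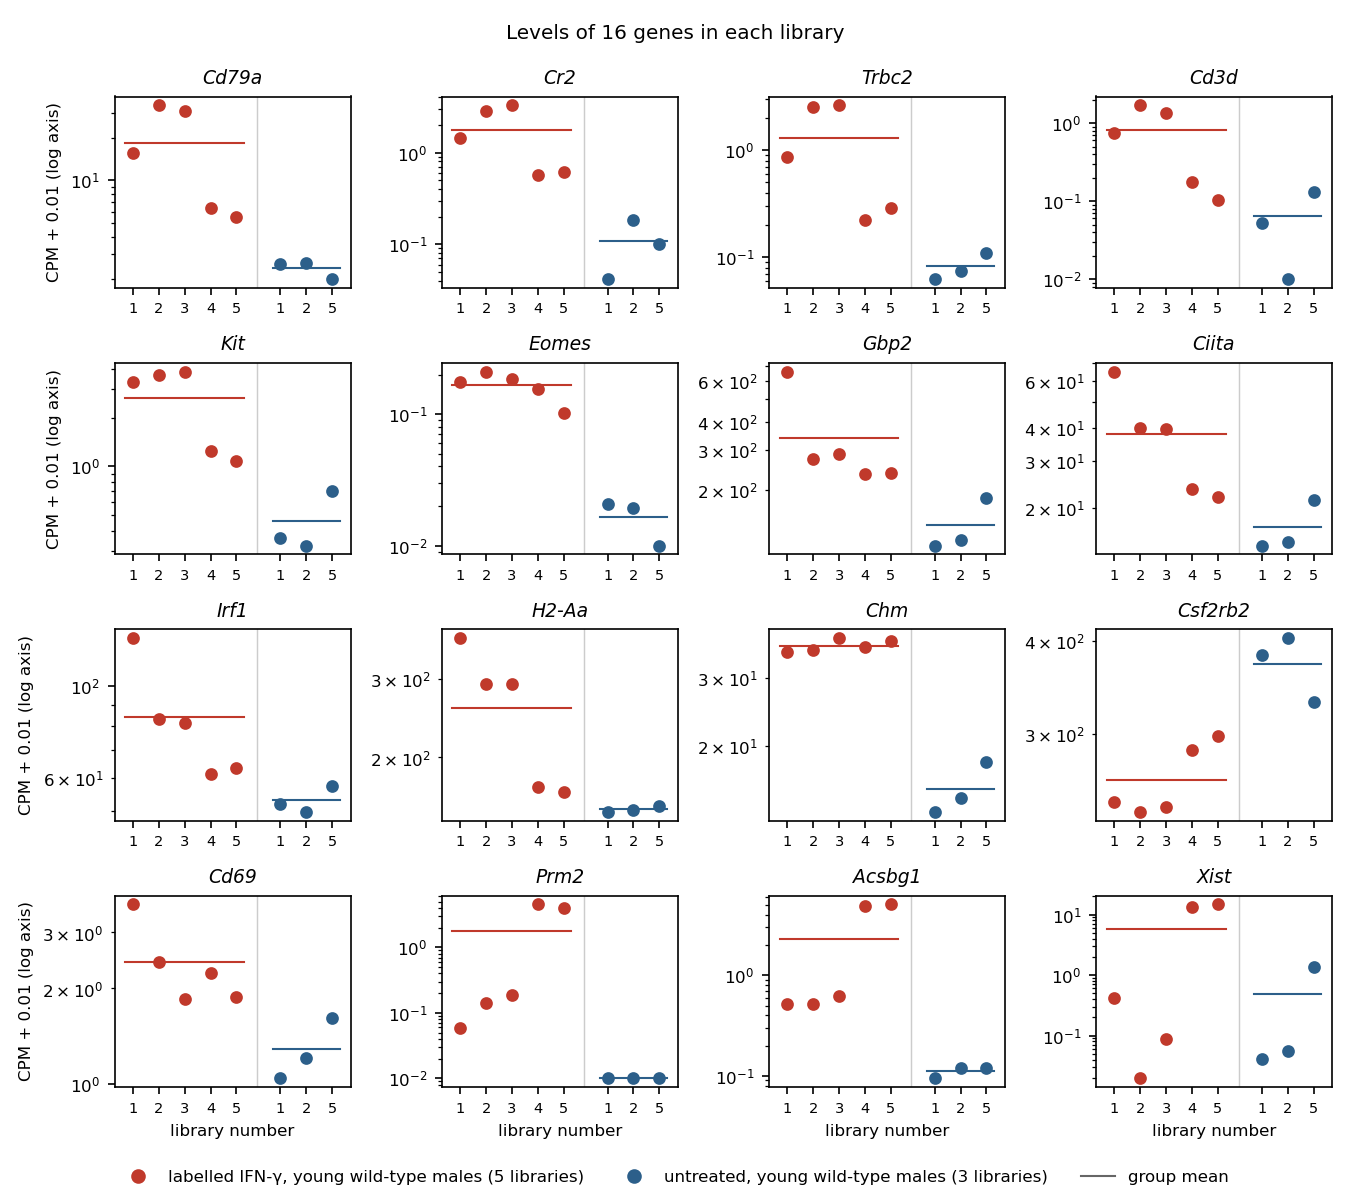
Level of 16 genes in each library (vertical axes, CPM + 0.01, log scale); IFN-γ libraries stand left of untreated libraries, points are libraries and lines group means. Chm separates the groups with little spread, Cd79a and Cd3d split IFN 1 to 3 from IFN 4 and 5, and Gbp2 is highest in IFN 1.

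The IFN-γ response genes mostly had positive differences with the IFN-γ label, but 0 of 37 passed the test. Of the 37, 34 had a positive log2 difference, 19 had an unadjusted p under 0.05, all higher, and 20 had groups that did not overlap, all higher, against 4.33% of all genes. The list median was 0.85. Gbp2, a guanylate-binding protein, had 662, 274, 287, 235 and 239 CPM in IFN 1 to 5, against 115, 121 and 186 CPM in UT 1, UT 2 and UT 5. IFN 1 stood far above the rest and UT 5 was the highest untreated library (log2 difference 1.27 ± 0.57 SE, edgeR adjusted p = 0.48). IFN 1 was the highest IFN-γ library in 36 of the 37 genes and UT 5 the highest untreated library in 29.

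By the class rule 27 of the 37 tracked no other cell type, and all 27 had a positive difference with a median of 1.15. The other 10 tracked another cell type and had a median of 0.26. Irf1, whose GAS match is printed above, had 130.1, 83.2, 81.4, 61.4 and 63.2 CPM in IFN 1 to 5, against 51.8, 49.6 and 57.3 CPM in UT 1, UT 2 and UT 5, with no overlap (log2 difference 0.67 ± 0.27 SE, adjusted p = 0.38). Ciita had 65.0, 39.8, 39.5, 23.5 and 21.9 CPM in IFN 1 to 5, against 14.5, 15.0 and 21.5 CPM in UT 1, UT 2 and UT 5. IFN 5 and UT 5 nearly touched, and the difference of 1.16 ± 0.37 had an adjusted p of 0.2.

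Other targets were more uneven. Cxcl10, a chemokine for activated T cells, had 5.57 to 15.3 CPM in IFN-γ libraries and 3.25 to 4.37 CPM in untreated libraries (log2 difference 1.17 ± 0.54 SE, adjusted p = 0.5), with IFN 1 highest. Cxcl9, a chemokine of the same family, had 151, 96.9, 101, 43.0 and 42.8 CPM in IFN 1 to 5, against 51.8, 54.8 and 43.7 CPM in UT 1, UT 2 and UT 5, so that IFN 4 and 5 lay below every untreated library (adjusted p = 0.87). Nos2, the inducible nitric oxide synthase, had 8.84, 5.51, 5.58, 3.78 and 4.43 CPM in IFN 1 to 5, against 7.87, 7.50 and 2.49 CPM in UT 1, UT 2 and UT 5, and the groups overlapped (log2 difference -0.08 ± 1.00 SE, adjusted p = 0.99). Socs1, which inhibits JAK kinases, had 8.87 to 20.0 CPM in IFN-γ libraries and 5.51 to 8.49 CPM in untreated libraries (adjusted p = 0.59). Cish, a related inhibitor, had 0.284 to 0.582 CPM in IFN-γ libraries and 0.0422 to 0.320 CPM in untreated libraries (adjusted p = 0.11).

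The receptor genes were not higher. Ifngr1 had 184 to 189 CPM in IFN-γ libraries and 188 to 201 CPM in untreated libraries (log2 difference -0.07 ± 0.16 SE, adjusted p = 0.96). Ifngr2 had 169 to 183 CPM in IFN-γ libraries and 184 to 198 CPM in untreated libraries, without overlap (log2 difference -0.11 ± 0.06 SE, adjusted p = 0.66). Of 17 genes of IFN-γ signalling 0 passed and the median was 0.14. Of 31 type I interferon genes 0 passed and the median was 0.08, against 0.85 for the IFN-γ response genes.

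Genes of MHC class II presentation were higher in IFN 1 to 3, and 0 of 14 passed. Of these, 13 had a positive difference, 11 an unadjusted p under 0.05 and 10 groups that did not overlap, all higher, against 5.63% and 4.33% of all genes, and the median was 0.71. H2-Aa, the α chain of I-A, had 370.3, 292, 292, 171 and 167 CPM in IFN 1 to 5, against 151, 153 and 156 CPM in UT 1, UT 2 and UT 5. The groups did not overlap, with IFN 4 and 5 just above the untreated libraries (log2 difference 0.76 ± 0.25 SE, edgeR adjusted p = 0.22). Cd74, the invariant chain, had 641, 553, 538, 319.9 and 341 CPM in IFN 1 to 5, against 343, 262 and 300.4 CPM in UT 1, UT 2 and UT 5, and UT 1 lay above IFN 4 and 5 (adjusted p = 0.32). With IFN 1 to 3 alone H2-Aa differed by 1.05 (adjusted p = 0.025) and with IFN 4 and 5 alone by 0.13, and 9 of the 14 genes passed without IFN 4 and 5.

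These are also genes that B cells express, and the values that bear on this are unequal. H2-Ob, the β chain of the B cell modulator H2-O, had 8.52, 17.5, 18.2, 3.08 and 2.88 CPM in IFN 1 to 5, against 1.29, 0.921 and 1.34 CPM in UT 1, UT 2 and UT 5, and correlated at 0.96 with the B cell list over the 47 other libraries. H2-Eb2 had 0.963 to 7.22 CPM in IFN-γ libraries and 0.300 to 0.590 CPM in untreated libraries, and correlated at 0.91. H2-Aa correlated at 0.16, Cd74 at 0.25 and Ciita at 0.07. By the class rule 9 of the 14 genes tracked another cell type (median 0.76) and 5 did not (median 0.71). IFN 1 was the highest IFN-γ library in 7 of the 14. In H2-Ob, as in Cd79a, IFN 2 and 3 were the highest, whereas H2-Aa, Cd74, Ciita and Gbp2 were highest in IFN 1. With the B cell level of each library as a covariate the log2 difference was 0.44 for H2-Aa, 0.28 for Cd74, 0.01 for H2-DMb2, 0.89 for Ciita and 1.28 for Gbp2. That level (mean log2 CPM of the list) was 1.67 to 3.57 in IFN-γ libraries and 0.15 to 0.28 in untreated libraries, without overlap. The adjusted values therefore extrapolate along a slope fitted over all groups and do not separate the label from the B cell level.

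Lysosomal genes mostly had small negative differences with the IFN-γ label, and 0 of 58 passed. Of the 58 genes of lysosomal hydrolases and membrane proteins 9 had a positive difference and the median was -0.11. In 36 of them IFN 4 and 5 each exceeded IFN 1 to 3. Of 17 genes of the V-ATPase, the proton pump that acidifies lysosomes, 0 had a positive difference, 6 had groups that did not overlap, all lower, against 4.33% of all genes, and the median was -0.12. Summed, they had 7369, 7406, 7379.6, 8356 and 8516 CPM in IFN 1 to 5, against 8848, 8842 and 8524 CPM in UT 1, UT 2 and UT 5. The groups did not overlap, but IFN 5 and UT 5 differed by little. With the B cell level as a covariate both medians were positive, 0.29 for lysosomal hydrolases and membrane proteins and 0.23 for the V-ATPase. These adjusted medians are extrapolations, since the B cell level did not overlap between the groups. Atp6v1b2 had 758 to 859 CPM in IFN-γ libraries and 929 to 951 CPM in untreated libraries (log2 difference -0.23 ± 0.14 SE, adjusted p = 0.7). Lysosomal cathepsins lay on both sides, with Ctsk at 179 to 198 CPM in IFN-γ libraries and 252 to 424 CPM in untreated libraries (log2 difference -0.93 ± 0.36 SE, adjusted p = 0.35), and Ctsc at 347 to 547 CPM in IFN-γ libraries and 217 to 326 CPM in untreated libraries (log2 difference 0.66 ± 0.20 SE, adjusted p = 0.15).

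Mfge8, which bridges apoptotic cells to phagocytes, had one of the larger separations without passing. It had 379.9, 422, 391, 668 and 699 CPM in IFN 1 to 5, against 1387, 1226 and 1228 CPM in UT 1, UT 2 and UT 5. Every IFN-γ library was far below every untreated library, and UT 5 was like UT 2 (log2 difference -1.32 ± 0.37 SE, edgeR adjusted p = 0.12). With IFN 1 to 3 alone it fell by 1.69 (adjusted p = 0.042). Of the 17 efferocytosis genes 0 passed and the median was 0.04.

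Smaller lists of macrophage functions gave no called gene. Of 13 NRF2 targets 11 had a positive difference and 4 an unadjusted p under 0.05, with a median of 0.31. Gclc, the catalytic subunit of glutamate-cysteine ligase, had 54.3, 53.6, 55.0, 45.1 and 46.4 CPM in IFN 1 to 5, against 36.0, 39.1 and 45.0 CPM in UT 1, UT 2 and UT 5 (adjusted p = 0.13), with UT 5 just below IFN 4. Its partner subunit Gclm had 77.5 to 138 CPM in IFN-γ libraries and 51.0 to 89.9 CPM in untreated libraries, and UT 5 lay above IFN 4 and 5. Of 19 chemokines 17 had a positive difference and the median was 0.52. Ccl2, which draws monocytes, had 14.7 to 17.3 CPM in IFN-γ libraries and 9.65 to 11 CPM in untreated libraries (log2 difference 0.67 ± 0.21 SE, adjusted p = 0.2), and Ccl7 had 3.59 to 4.89 CPM in IFN-γ libraries and 1.61 to 2.63 CPM in untreated libraries (log2 difference 1.04 ± 0.32 SE, adjusted p = 0.19). Both separated with no split between IFN 1 to 3 and IFN 4 and 5.

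Pdcd1lg2, the checkpoint ligand PD-L2, had 4.52, 3.64, 3.44, 3.71 and 3.67 CPM in IFN 1 to 5, against 1.60, 1.91 and 1.72 CPM in UT 1, UT 2 and UT 5 (log2 difference 1.12 ± 0.35 SE, adjusted p = 0.19). It likewise had no split between IFN 1 to 3 and IFN 4 and 5, but IFN 1 stood apart from the other IFN-γ libraries. Mrc1, the mannose receptor, had 155 to 218 CPM in IFN-γ libraries and 93.4 to 132 CPM in untreated libraries (log2 difference 0.73 ± 0.36 SE, adjusted p = 0.56). Of 12 macrophage genes 0 passed, with a median of 0.14, and of 16 genes of resident large peritoneal macrophages 0 passed, with a median of 0.32. In the lists of cytokines (16 tested), arginine metabolism (7), MHC class I presentation (22), costimulatory and checkpoint ligands (12), alternative activation (11), proliferation (28), unfolded protein and integrated stress response (22), sterol synthesis (19), circadian clock (14) and immediate-early genes (13), as in eosinophil (4), dendritic cell (9) and red cell (5) genes, 0 passed.

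The label effect was then set against that in other strata by the difference of the 2 log2 differences in the same fit. These comparisons all use the 8 young wild-type male libraries. Against young knock-in males (3 IFN-γ and 3 untreated libraries) 0 of 22147 genes differed by edgeR, 927 had an unadjusted p under 0.05 (4.19%), and DESeq2 called 15. Against young wild-type females (3 and 3 libraries) 34 genes differed (0.154%), 4 with a higher and 30 with a lower value in males (0.0181% and 0.135%). That count was 43 without IFN 1, 20 without IFN 3, 4 without IFN 4 or IFN 5, 2 without UT 1, 7 without UT 2 and 3 without UT 5. It was 1, a predicted gene, without library 1 of the female IFN-γ group. Against old wild-type males (5 and 3 libraries) only Pglyrp2 differed (0.00452%), and 0 did without IFN 2, IFN 3, UT 1 or UT 2, while 5 did without UT 5.

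One female IFN-γ library, library 1, stood apart from the other 2. Its resident macrophage list summed to 6133 CPM, against 448 and 490.5 CPM in the other female IFN-γ libraries and 293 to 369 CPM in female untreated libraries, and its B cell list to 3883 CPM, against 878 and 652 CPM in the other female IFN-γ libraries. The results against females are therefore given with and without it.

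Genes of MHC class II were among those that differed from females. The log2 difference of H2-Aa was 0.76 ± 0.25 in young males and 2.35 in young females (difference -1.59 ± 0.36 SE, edgeR adjusted p = 0.044). That of Cd74 was 0.67 ± 0.25 in males and 2.46 in females (-1.79 ± 0.36, adjusted p = 0.036), and that of H2-DMb2, a chain of the peptide editor H2-DM, was 1.02 ± 0.29 in males and 3.05 ± 0.33 in females (-2.04 ± 0.42, adjusted p = 0.039). H2-Ab1 and H2-Eb1 differed by -1.60 ± 0.36 and -1.65 ± 0.35. All were smaller in males. Without female library 1 the differences were -1.25 ± 0.36 for H2-Aa (adjusted p = 0.72), -1.52 ± 0.37 for Cd74 (adjusted p = 0.51), -0.84 ± 0.31 for H2-DMb2 (adjusted p = 0.94), -1.39 ± 0.37 for H2-Ab1 and -1.19 ± 0.33 for H2-Eb1 (adjusted p = 0.59 and 0.71), so that none of the 5 passed. The median of the resident macrophage list was 0.32 in males and 3.19 in females, or 0.68 in females without that library. The median of the B cell list was 3.01 in males and 5.05 in females, or 3.53 in females without that library.

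Chm was larger in males, with a log2 difference of 1.23 ± 0.18 in young males and 0.04 ± 0.19 in young females (difference 1.19 ± 0.26 SE, adjusted p = 0.043). Without female library 1 the difference was 1.13 ± 0.28 (adjusted p = 0.59). The log2 difference of Chm was 0.32 ± 0.19 in young knock-in males and 0.59 ± 0.18 in old wild-type males (adjusted p = 0.054 for the old males' own effect), and neither stratum was shown to differ from young wild-type males. Alox15, a lipoxygenase of resident peritoneal macrophages, differed by 0.42 ± 0.76 in young males and 5.48 in young females (difference -5.06 ± 1.17 SE, adjusted p = 0.049). Female library 1 had 1123 CPM of Alox15, the other female IFN-γ libraries 16.2 and 25.1 CPM and the female untreated libraries 7.31 to 10.5 CPM, and without library 1 the female value was 1.26 and the difference -0.84 ± 0.95 (adjusted p = 1.0). Pglyrp2 was 3.01 ± 0.51 higher in young males, against -0.46 ± 0.42 in old males (difference 3.47 ± 0.65 SE, adjusted p = 0.047).

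By list, the IFN-γ response median of 0.85 in young wild-type males stood beside 0.60 in young knock-in males, 2.43 in young wild-type females and -0.13 in old wild-type males. The T cell median of 3.55 stood beside 1.18, 3.59 and 2.98 in the same order of strata, the NK cell median of 2.02 beside 0.70, 3.01 and 0.15, and the mast cell median of 2.22 beside 0.14, 3.09 and 2.03. Without female library 1 the female median was 2.34 for the IFN-γ response list, 3.20 for T cells and 2.06 for mast cells. In old males the IFN-γ response and NK cell medians were near 0 and the T cell and mast cell medians were not. These medians were not tested against each other.

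**Figure D5:**
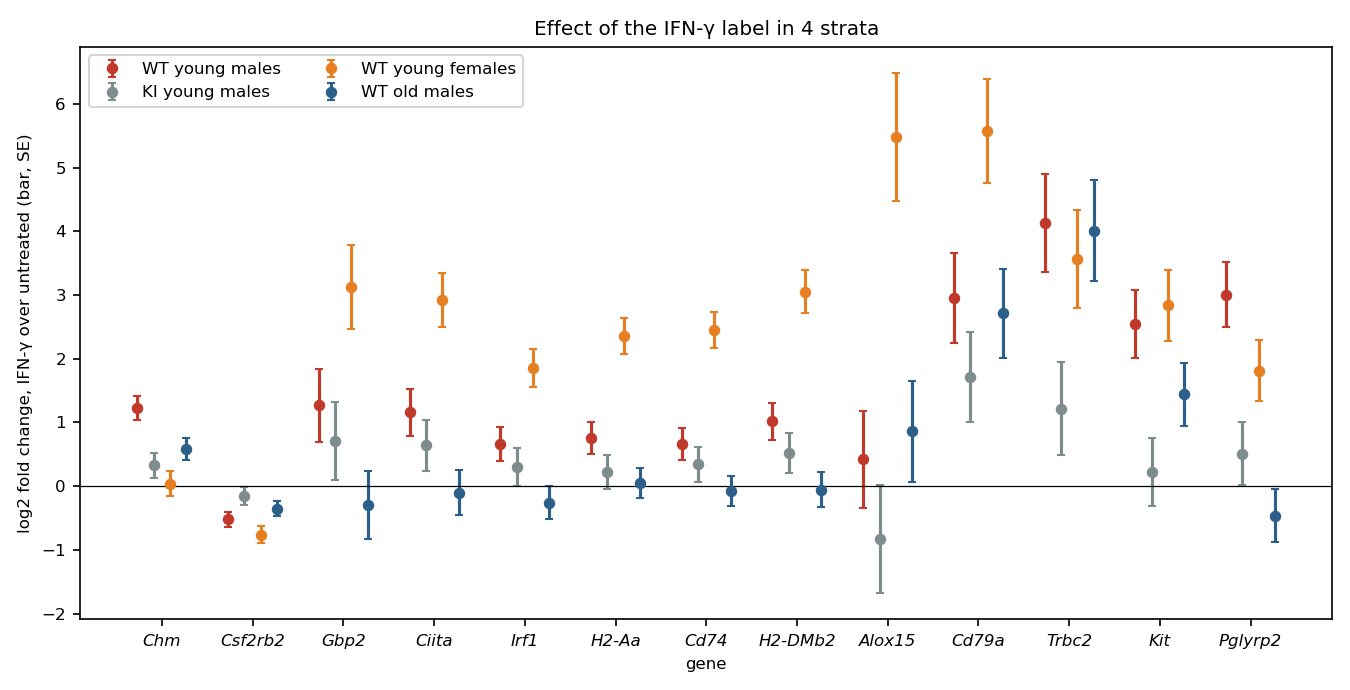
Log2 difference between IFN-γ and untreated libraries (vertical axis; points, estimate; bars, SE) for 13 genes (horizontal axis) in young wild-type males and 3 other strata. The difference of MHC class II genes is smaller in young wild-type males (H2-Aa, 0.76) than in young wild-type females (2.35 with and 2.01 without female library 1), and that of Chm is largest in young wild-type males (1.23).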

How the data were processed

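The deposited table held raw read counts per gene for 63 mouse libraries (polyA RNA, NEBNext Ultra II Directional kits, NovaSeq, per the labels' protocols). STAR 2.7.9a, DESeq2 1.40.2 and the GRCm39 build are named in the submitters' processing notes. For the read counter, annotation version and strand setting, the entry is "not given in the sources used here". Reads of overlapping, antisense or near-identical genes may therefore be shared. Libraries were grouped by labels and column names. The counts were fitted as deposited in edgeR 4.0.16 (R 4.3.3, limma 3.58.1), with 1 coefficient for each of 16 groups, TMM normalization, filterByExpr and the quasi-likelihood F test, and Benjamini-Hochberg adjustment over 22147 genes at 0.05. The SE is the log2 difference divided by the square root of F. Differences between strata are contrasts in that fit. Gene symbols came from a GRCm38 annotation, and 52073 of 56748 IDs had one.

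The genes named were up to 12 each way with the largest change among called genes of at least 1 CPM whose groups did not overlap, the same among genes of the remainder, up to 5 of each list by smallest p, up to 4 each way for each difference, and a fixed set of pathway and control genes. Predicted genes and receptor segments were counted and not named. Some genes the rule names are not reported here. Bmpr1a, Cd22, Cpa3, Csf2rb, H2-Ab1, H2-Eb1, Ighm, Pglyrp2, Prm1, Ptgds, Scd1, Thy1, Tnp2 and Tpsb2 fall outside this rule and were named after their values were seen. The comparison, its gene lists and its classes were chosen with earlier results of these data known.

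Totals of 95.6 to 106.6 M counts give small counting error for most genes, and precision is set by the spread between libraries. A fold against a group at 0 uses a floor of 3 counts over the group, which covers counting error only. Counts of same-group libraries differed by more than sampling noise, and each library was counted separately. On simulated data of 21771 genes the main comparison recovered 168 of 200 changed genes, 99 of 100 of those with a log2 change of 2 or 3, with 9 false calls. The simulated libraries were independent draws, and only genes above 1 CPM were changed. These rates therefore do not cover sets of like libraries, as among the IFN-γ libraries, or genes of few counts. Alternatives were DESeq2 size factors, no filter, DESeq2 1.42.0, each library left out, IFN 4 and 5 left out, libraries of like V segment use joined, the B cell level as a covariate, the 8 libraries alone and with the replicate number as a block. Leaving out IFN 1 to 3, leaving out library 1 of the young female IFN-γ group and joining the like libraries of both groups were added after the data were seen.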

Additional observations from a re-analysis of the deposited data

Results flagged for a closer look

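Among 85 genes examined for a single library apart from the other 4 of its group, 9 were found. The cutoff used gives about 1 in 20 by chance for 5 independent values of 1 gene. That rate does not apply here, since the IFN-γ libraries fell into 2 sets and many of the genes were chosen by their values. The 9 are also not separate events. In 8 of the 9 genes IFN 1 was high, at 662 CPM for Gbp2, 146 CPM for Irgm1, 32.8 CPM for Gbp9, 15.3 CPM for Cxcl10, 64.7 CPM for Ifit2, 108 CPM for Tap1, 547 CPM for Ctsc and 4.52 CPM for Pdcd1lg2. In Asns, an asparagine synthetase, IFN 2 was low at 7.45 CPM.

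Differences between young wild-type males and young wild-type females passed the test of the difference of 2 log2 differences in edgeR for H2-Aa (-1.59), H2-Ab1 (-1.60), H2-Eb1 (-1.65), Cd74 (-1.79), H2-DMb2 (-2.04), Alox15 (-5.06), Enpp4 (-1.98), Prr5 (-3.0), Tmem165 (0.57), B3gnt7 (1.84), Cdh1 (3.07) and Chm (1.19), where a negative value is a smaller log2 difference in males. None of these 12 passed without library 1 of the young female IFN-γ group, in which Alox15 had 1123 CPM. Against old wild-type males Pglyrp2 differed by 3.47.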

How the results depend on the processing

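The count of 61 called genes was 56 with DESeq2 size factors in edgeR, 55 without the filter, 48 with the 8 libraries alone, 210 with DESeq2, 189 without IFN 4 and 5, 24 without IFN 1 to 3, 13 with libraries of like V segment use joined, 0 with the like libraries of both groups joined, 2910 with the B cell level as a covariate, and 1 to 104 with single libraries left out. The split of higher and lower calls was 55 and 6 as reported, 35 and 13 with the 8 libraries alone, 158 and 31 without IFN 4 and 5, and 1779 and 1131 with the covariate. It was 54 and 2 with DESeq2 size factors, 53 and 2 without the filter, and 194 and 16 with DESeq2. With libraries of like V segment use joined it was 13 and 0. Without IFN 1, IFN 2 or IFN 3 it was 55 and 0, 22 and 1, or 18 and 0. Without IFN 4, IFN 5 or UT 5 it was 98 and 6, 80 and 4, or 29 and 8.

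The 7 B cell calls became 0 to 11 with single libraries left out, 14 without IFN 4 and 5, 0 without IFN 1 to 3, 1 with libraries of like V segment use joined, 0 with the like libraries of both groups joined, 3 with the 8 libraries and 15 with DESeq2. The 10 T cell calls became 0 to 15 with single libraries left out, 17 without IFN 4 and 5, 0 without IFN 1 to 3, 2 and 0 with these 2 ways of joining, 0 with the 8 libraries, 16 with DESeq2 and 4 with the covariate. The IFN-γ response list had 2 calls without IFN 4 and 5, 3 with the covariate and 1 with the 8 libraries. MHC class II had 9 calls without IFN 4 and 5, 4 with the covariate, 5 with DESeq2 and 0 to 3 with single libraries left out.

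Genes that differed from young knock-in males numbered 7 without IFN 1 to 3, 15 with DESeq2 and 0 to 1 with single libraries left out. Those that differed from young females numbered 3 without IFN 4 and 5, 136 without IFN 1 to 3, 1 with libraries of like V segment use joined, 2 with the covariate, 244 with DESeq2, 1 without female IFN-γ library 1 and 2 to 43 with single libraries left out. Those that differed from old males numbered 0 with DESeq2 size factors, without the filter or with libraries of like V segment use joined, 2 without IFN 1 to 3 or with the covariate, 8 with DESeq2 and 0 to 5 with single libraries left out.

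With the B cell covariate the log2 difference changed sign in Cd79a (-0.19), Cxcl9 (-0.86), Ifngr1 (0.37), H2-Ob (-0.32), H2-Eb2 (-0.34), Csf1r (-0.16), Lrrk2 (-0.32), Ighm (-0.43), Tpsb2 (-0.65), Cpa3 (-0.94), Atp6v1b2 (0.23) and Vsig4 (-1.45). The B cell level did not overlap between the groups, so every value with this covariate is an extrapolation. Without IFN 1 to 3 the sign changed in Cxcl9 (-0.24), Csf1r (-0.11) and Vsig4 (-0.74), and without IFN 4 and 5 in Xist (-1.54) and Nos2 (0.16). Nos2 ran from -0.45 to 0.17 with single libraries left out and was 0.062 with like libraries joined. The causes were not tested. Chm kept its direction in all 18 alternatives and passed in 17.

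Libraries with the same number did not clearly deviate together (r = 0.018, 0.0080 and 0.043 for numbers 1, 2 and 5). Pairs with different numbers ran from -0.080 to 0.082. All these values are low and were taken over all genes tested, many of few counts. They do not decide whether the numbers pair libraries. The replicate block gave 3 called genes, 0 B cell and 0 T cell calls, 0.18 for Nos2 and 1.23 for Chm (adjusted p = 0.035).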

Other observations

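Cdh1, which encodes E-cadherin, had 1.04, 1.17, 1.32, 1.46 and 1.36 CPM in IFN 1 to 5, against 0.654, 0.377 and 0.440 CPM in UT 1, UT 2 and UT 5. The groups did not overlap, and the log2 difference was 1.38 ± 0.47 in young males (edgeR adjusted p = 0.26) and -1.69 in young females (-1.29 without library 1 of the female IFN-γ group). B3gnt7 and Tmem165, which encode a glycosyltransferase and a Golgi membrane protein, had differences near 0 in young males (0.15 ± 0.28 and 0.00 ± 0.09) and of -1.68 and -0.57 in young females (-1.33 and -0.39 without that library).

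Hsp90b1, a chaperone of the endoplasmic reticulum, had 491, 406, 446, 427 and 445 CPM in IFN 1 to 5, against 317, 359 and 400.0 CPM in UT 1, UT 2 and UT 5, without overlap (log2 difference 0.30 ± 0.11 SE, adjusted p = 0.31). Vsig4, the complement receptor of resident macrophages, had 116, 134, 138, 41.0 and 39.7 CPM in IFN 1 to 5, against 79.6, 87.6 and 33.0 CPM in UT 1, UT 2 and UT 5, so that IFN 4, IFN 5 and UT 5 were the 3 low libraries in both groups.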
